A study of Mus musculus with 9 samples.

Results

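Oxidative phosphorylation (OXPHOS) in the mitochondrion is carried out by 5 protein complexes. Complexes I and II pass electrons from NADH and succinate to ubiquinone, complex III passes them on to cytochrome c, complex IV hands them to oxygen, and complex V uses the resulting proton gradient to make ATP. Most subunits are encoded in the nucleus, and a small set in mitochondrial DNA, so the complexes are assembled from both genomes. In dendritic cells (DCs), mitochondrial respiration is known to be used most by resting cells, while activation shifts them towards glycolysis. The nuclear genes of these complexes were followed here in DCs of normal and leukemic mouse spleens.

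The members were the protein-coding genes with a name that starts with Nduf (followed by a, b, c, s or v), Uqcr, Cox4 to Cox8 or Atp5, or that is Sdha, Sdhb, Sdhc or Sdhd, with Cox6a2 left out. The rule took 93 of the 54532 genes listed, with 2 of them under the name Atp5o. They comprised 36 complex I subunits, 8 complex I assembly factors (Ndufaf1 to Ndufaf8), 4 subunits of complex II, 8 of complex III, 18 of complex IV (with Ndufa4 and Ndufa4l2) and 17 of complex V. Cox7a2l, a factor that joins complexes III and IV into supercomplexes, and Atp5s were kept apart from the complexes. An FPKM (fragments per kilobase of gene, scaled to the size of the library) of at least 1 in at least 3 samples was reached by 86 members, which were the ones tested among 12746 genes. Of the other 7, Cox7b2, Cox8b, Cox8c and a second Atp5o gene that overlaps the first were listed at 0 in every sample, Ndufb2 and Cox7a1 reached at most 1.14 and 1.15 FPKM, and Ndufa4l2 was at 0 except in T-DC sample 3, at 1.26 FPKM.

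Bulk RNA-seq compared 3 groups of 3 samples sorted from spleens of C57BL/6J mice by flow cytometry after enrichment on CD11c. N-mDCs were mature conventional DCs (cDCs) of normal mice. T-mDCs were mature cDCs of mice with T-cell acute lymphoblastic leukemia (T-ALL). T-DCs, which the submitters titled immature DCs, came from spleens with the same leukemia and were sorted as CD11c+ MHCIIlo. The leukemia was driven by the intracellular domain of Notch1, carried with GFP by a retrovirus, and GFP+ leukemia cells were passed into recipients that had not been irradiated. Late-stage disease was sampled. The T-DC gate left out GFP+ leukemia cells and cells with lymphocyte markers such as CD3 and NK1.1. Whether a sample held 1 mouse or several was not stated, so p-values measure the spread between these samples, which may be technical. The comparisons address whether nuclear OXPHOS transcripts differ with leukemia (T-mDC against N-mDC) or, within leukemic spleens, with the low-MHCII state (T-DC against T-mDC). T-DC against N-mDC varies both at once, so leukemia and MHCII state cannot be told apart in it.

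Reads on genes, recovered from FPKM and gene length, ranged from 15360815 to 18440913 per sample. At this depth a single read was equal to between 0.0517 and 0.0659 FPKM for a transcript of 1 kilobase. How reads with several genomic matches and reads of overlapping genes were counted is not given in the sources used here, which bears on 5 members with named pseudogenes (Atp5c1, Atp5k, Atp5l, Ndufab1 and Uqcrh) and on 24 members that overlap a tested gene. Samples of a group differed in ways that the groups do not explain. The summed FPKM of 9 erythroid markers (globins and Alas2 among them) was 604 in T-DC sample 1 but 58044 and 42074 in T-DC samples 2 and 3. In the N-mDC group it was 99.6, 5360 and 485, and in the T-mDC group 179, 21.6 and 14.6. Against T-mDC 9 of 9 erythroid markers rose in T-DC, and against N-mDC 1 of 9. The same 2 T-DC samples had the highest sums of 6 neutrophil markers (3757 and 1275, against 8.19 in T-DC sample 1 and 3.45 to 634 in the mature samples) and of 6 cell cycle genes (746 and 825, against 123 in T-DC sample 1 and 121 to 237 in the mature samples). The sum of 4 cDC markers (Itgax, Zbtb46, Flt3 and Dpp4) was 185, 109 and 57.5 in T-DC samples 1 to 3, below all 6 mature samples (244 to 386). All 4 were detected in every T-DC sample, but each was lower in every T-DC than in every mature sample. Against N-mDC 3 of 4 fell, and against T-mDC 3 of 4. Macrophage markers stood the other way, with a sum over 7 markers of 2281 in T-DC sample 1 and 770 and 492 in T-DC samples 2 and 3. The mature samples ran from 357 to 2604. Leaving out T-DC samples therefore also changes the macrophage marker level. Member calls were also made without T-DC sample 1. Fold changes were also taken with T-DC sample 1 as the only T-DC, a fit that holds no spread of T-DCs. The other gene lists are given with all samples. In bulk samples, fewer cells of a type and less RNA per cell cannot be told apart. T-mDC samples 2 and 3 were closer to each other than any other pair of a group (chi-square per gene 1.85, against 7.89 or more), which is still above counting noise, and were counted as 2 samples.

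Sequence before the gene start is shown for 4 members, chosen to show the motifs scanned for and the pair of subunit 6B genes that differ most in the results. RefSeq promoter windows of 300 bases (250 before and 50 after the start, GRCm38.p6, the build of the mm10 coordinates) were found for 74 of the 92 gene names, with 79 windows in all. Motifs of 4 factors were searched on both strands, and windows were counted once per motif. The NRF1 motif, named only and read with its reverse complement, was in 25.3% of the member windows and in 4.6% of 32851 windows of all genes. The ETS motif (CCGGAAG) was in 22.8% against 8.86%, the YY1 motif (AANATGGCG) in 13.9% against 2.38%, and the Sp1 motif (GGGCGG) in 43% against 35.7%. NRF1, the ETS factor GABP, YY1 and Sp1 are known activators of nuclear respiratory genes, and a match is a description of the letters, not of binding. The stretches below lie 5′ to 3′ on the strand of the gene, end just before its outermost start, stop before the exon of any other gene, and have motif matches in capitals. Matches named are those in the printed stretch only. Outside it, the scanned window held 1 ETS match for Cox6b1 and 1 Sp1 match for Cox6b2, and the windows of Sdha and Sdhd held further matches.
Sdha (chr13:74350281-74350308, minus strand, 1 NRF1 match): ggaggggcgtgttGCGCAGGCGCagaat
Sdhd (chr9:50603850-50603909, minus strand, 1 ETS match): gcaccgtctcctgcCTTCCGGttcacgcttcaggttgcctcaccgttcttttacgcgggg
Cox6b1 (chr7:30626152-30626271, minus strand, no match): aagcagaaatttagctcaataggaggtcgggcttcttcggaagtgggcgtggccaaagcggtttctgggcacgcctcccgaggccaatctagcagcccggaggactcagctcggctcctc
Cox6b2 (chr7:4753095-4753214, minus strand, no match): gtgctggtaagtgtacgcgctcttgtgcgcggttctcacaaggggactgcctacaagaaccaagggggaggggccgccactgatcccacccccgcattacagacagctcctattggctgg

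Levels of the members as a set overlapped between T-DCs and N-mDCs, were higher in every T-DC than in every T-mDC sample, and few single members passed the test. Summed over the 93 members, FPKM was 3898, 5607 and 3261 in the N-mDC group, 4004, 4672 and 5970 in the T-DC group, and 3889.9, 3795 and 3723 in the T-mDC group, in the order of the sample numbers. Values are given in this order throughout. T-DC sample 1 was the T-DC nearest to the T-mDCs, and N-mDCs overlapped both groups, with N-mDC sample 2 and T-DC sample 3 high and N-mDC sample 3 lowest. T-DC sample 3 had the highest value of all 9 samples for 50 of the 86 tested members, and N-mDC sample 2 for 30. N-mDC sample 3 had the lowest for 49. Within their own groups, N-mDC sample 2 was highest for 81 members and T-DC sample 3 for 75.

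Complexes I, III, IV and V had the same high and low samples. As the median over genes of log2(FPKM + 1) minus the mean of the gene over the 9 samples, complex I stood at -0.15, 0.43 and -0.37 in N-mDCs, -0.03, 0.07 and 0.46 in T-DCs, and -0.16, -0.18 and -0.16 in T-mDCs. Complex III stood at -0.18, 0.44 and -0.40, at -0.07, 0.18 and 0.57, and at -0.11, -0.15 and -0.25. Complex IV stood at -0.09, 0.44 and -0.32, at -0.18, 0.14 and 0.52, and at -0.21, -0.14 and -0.27. Complex V stood at -0.12, 0.37 and -0.33, at -0.21, 0.18 and 0.44, and at -0.07, -0.11 and -0.15. Complex II differed, at -0.24, 0.12 and -0.30 in N-mDCs, 0.17, 0.06 and 0.38 in T-DCs, and 0.07, -0.04 and -0.09 in T-mDCs, so that T-DC sample 1 was above N-mDC sample 2. The median SD of a member was 0.41 (log2) within N-mDCs, where the median of all tested genes was 0.26. Within T-DCs it was 0.30 against 0.37, and within T-mDCs 0.09 against 0.15.

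**Figure D1:**
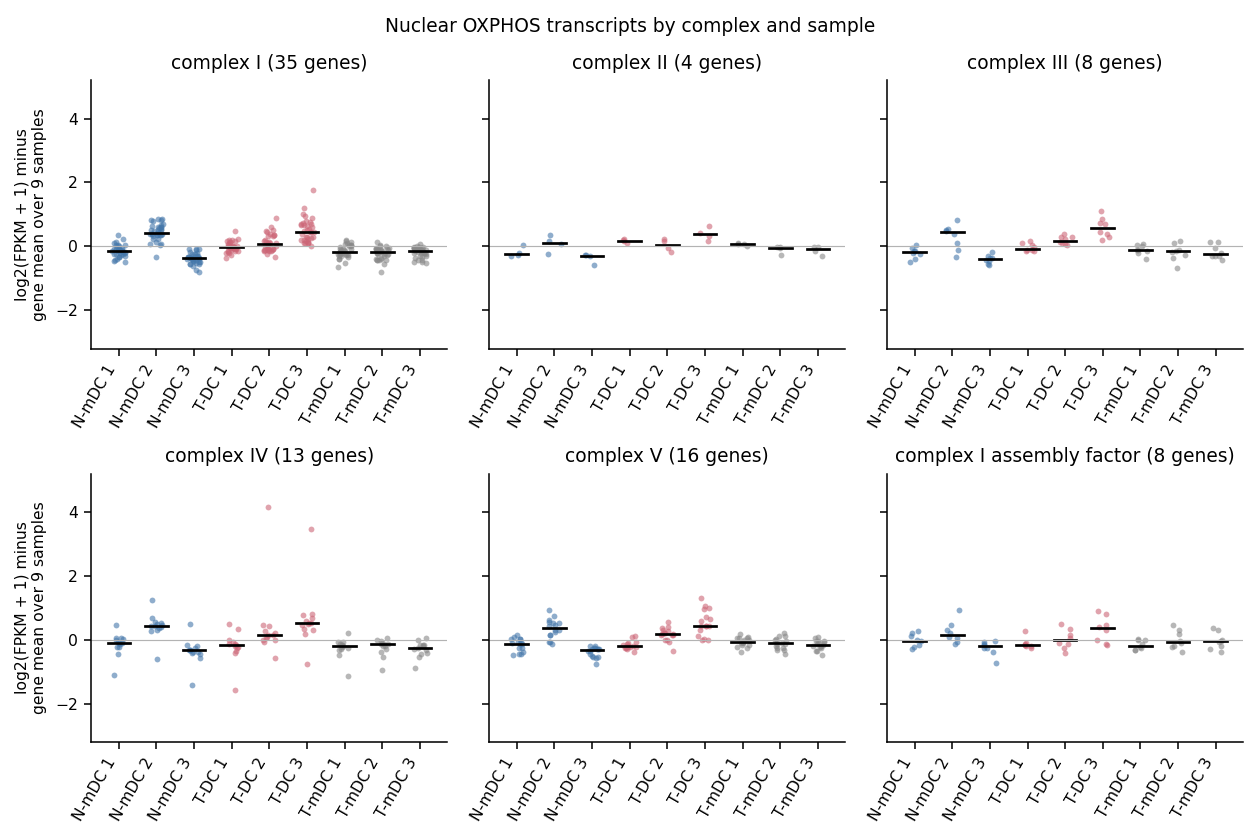
Each point is 1 tested member in 1 sample, as log2(FPKM + 1) minus the mean of that gene over the 9 samples (vertical axis), for the 5 complexes and the complex I assembly factors, with sample on the horizontal axis and black bars for the median over genes. T-DC sample 3 has the highest median in the panels of complexes I to V, followed by N-mDC sample 2 except in complex II, and the 2 points above 3 in complex IV are Cox6b2 in T-DC samples 2 and 3.

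Samples that were high for the members were also high for other short transcripts. The members had a median gene length of 1569 bases, against 3676 for all tested genes. Among all tested genes with a mean log2 level above 4, those of up to 700 bases stood at 0.02, 0.72 and -0.03 in N-mDCs, at -0.32, 0.10 and 0.39 in T-DCs, and at 0.04, -0.35 and -0.31 in T-mDCs. Genes over 5000 bases stood the other way in the high samples, at -0.26 in N-mDC sample 2 and -0.15 in T-DC sample 3. The members were high in T-DC sample 3 in all length classes (0.29 to 0.69), whereas in N-mDC sample 2 their medians ran from 0.74 for members of up to 700 bases to 0.05 for the 3 members over 5000 bases. With a correction of each sample for gene length, which was chosen after this trend was seen, the median log2 fold change of the members was 0.22 for T-DC against N-mDC, 0.29 for T-DC against T-mDC and -0.03 for T-mDC against N-mDC.

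**Figure D2:**
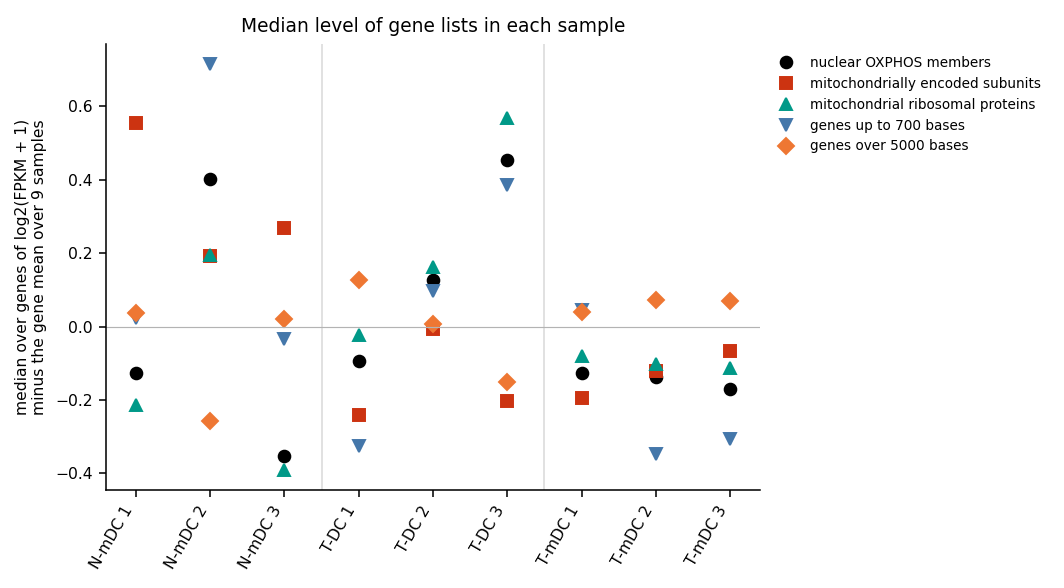
For each of the 9 samples (horizontal axis), the median over genes of log2(FPKM + 1) minus the mean of the gene over the samples (vertical axis) is plotted for the nuclear OXPHOS members, mitochondrially encoded subunits, mitochondrial ribosomal proteins, and genes of up to 700 and over 5000 bases with a mean log2 level above 4. The members are at 0.40 in N-mDC sample 2 and 0.45 in T-DC sample 3, where mitochondrially encoded subunits are at 0.19 and -0.20.

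With limma on all tested genes, an F-test over the 3 groups passed an adjusted p of 0.05 for 0 of 86 members, where 18.0% of all tested genes passed. At an unadjusted p under 0.05 it picked 7 members and 4510 of all 12746 tested genes. Limma voom on the recovered reads called 1 member and 17.1% of all tested genes. For T-DC against N-mDC, 1 member rose (Ndufs1) and 0 fell, where 6.10% of all tested genes rose and 10.3% fell. For T-DC against T-mDC, 1 rose (Ndufaf7) and 0 fell, where 5.44% rose and 8.79% fell. For T-mDC against N-mDC, 0 rose and 0 fell, where 0.690% rose and 1.52% fell. At an unadjusted p under 0.05 these comparisons picked 13, 13 and 5 members (15.1%, 15.1% and 5.81%), against 35.1%, 30.1% and 16.7% of all tested genes. A p that misses the threshold does not show that levels were alike. The 95% interval of the log2 fold change lay between -1 and 1, that is within a 2-fold change either way, for 55 members in T-DC against N-mDC, 57 in T-DC against T-mDC and 72 in T-mDC against N-mDC.

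The direction of the members was mostly upward in T-DCs. The log2 fold change of T-DC against N-mDC was positive for 66 of 86 members, with a median of 0.18 (1.14-fold) against 0.05 over all tested genes. Against T-mDC it was positive for 77 members, with a median of 0.34 (1.27-fold) against 0.07. For T-mDC against N-mDC it was negative for 60, with a median of -0.12 (0.923-fold) against 0.03. Rescaling to TPM moved the median of all tested genes to -0.07, -0.23 and 0.21, and the members to 0.08, 0.00 and 0.09, so that relative to all genes the members remained higher in both T-DC comparisons and lower in T-mDC against N-mDC. These medians rested on individual samples. Without T-DC sample 3 they were 0.05 and 0.16, and without T-DC sample 1 they were 0.32 and 0.45. Without N-mDC sample 2 the median against N-mDC was 0.38, and without N-mDC sample 3 it was 0.05. The median of T-mDC against N-mDC was 0.10 without N-mDC sample 2, a turn of its direction, and -0.31 without N-mDC sample 3. With T-DC sample 1 as the only T-DC, the medians were -0.09 and 0.07, and with the erythroid level as a covariate they were -0.17 and -0.21. Against T-mDC the covariate fit cannot cleanly separate erythroid level from group, as all 9 erythroid markers were higher in every T-DC than in every T-mDC sample. Against N-mDC this holds in part, with a median erythroid log2 fold change of 4.39. These limits apply wherever the covariate is used below.

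**Figure D3:**
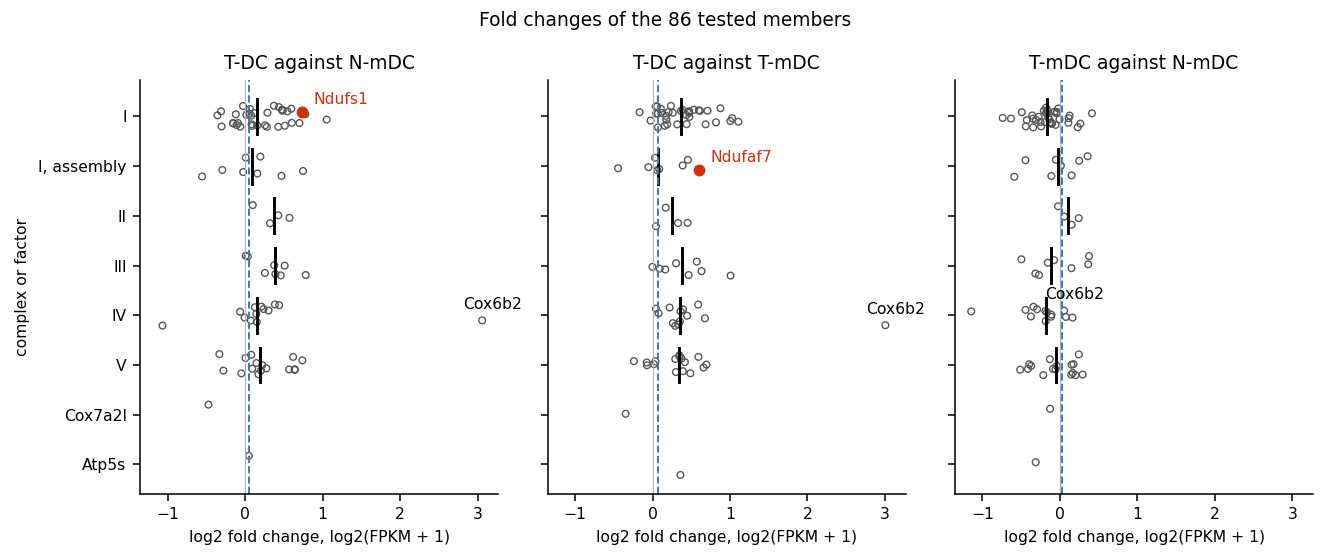
Log2 fold change (horizontal axis, on the log2(FPKM + 1) scale) of the 86 tested members by complex or factor (vertical axis) in the 3 comparisons, with black bars for the median of a complex, a dashed blue line for the median of all tested genes and filled red points for members past an adjusted p of 0.05. The filled points are Ndufs1 and Ndufaf7, and Cox6b2 lies at 3.06 and 3.01 in the T-DC comparisons without passing the test.

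Counts of members without overlap between groups were read against the share of all tested genes. Every T-DC sample was above every N-mDC sample for 7 members, 8.14% against 16.0% of all tested genes, and below for 2, 2.33% against 16.4%. Every T-DC sample was above every T-mDC sample for 29 members, 33.7% against 16.8% of all tested genes, and below for 0, against 18.1%. Of these 29, 16 were complex I subunits, 4 each belonged to complexes III and IV, 3 to complex V and 1 to complex II, and 1 was an assembly factor. The T-mDC samples were above all N-mDC samples for 5 members (5.81% against 19.3%) and below for 7 (8.14% against 15.7%). Atp5a1, Ndufa12, Ndufs1, Sdhc and Uqcrc1 were higher in every T-DC sample than in all 6 mature samples, a pattern of 5.81% of members and 9.2% of all tested genes.

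The calls without T-DC sample 1 were more numerous for the members and for all genes. They rest on T-DC samples 2 and 3, which had the highest erythroid, neutrophil and cell cycle sums. The part of these sums in the calls was not tested. This limit applies wherever a value without T-DC sample 1 is given below. Against N-mDC, 14 members rose and 2 fell, where 20.3% of all 12587 genes then tested rose and 19.2% fell. Against T-mDC, 14 rose and 0 fell, where 18.2% rose and 17.0% fell. Members that rose in both comparisons were Ndufs1, Ndufv1, Ndufa12, Ndufb9, Ndufab1, Uqcrc1, Cox6b2, Atp5o and Atp5g1, and those that fell against N-mDC were Cox4i2 and Cox7a2l. No calls are given with T-DC sample 1 as the only T-DC, since that fit holds no spread of T-DCs.

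In complex I, the peripheral arm that oxidises NADH held the member that rose. Ndufs1, on mm10 chromosome 1 at 63143596 to 63176833, encodes the largest core subunit, which carries iron-sulfur clusters. It was at 6.41, 6.32 and 6.01 FPKM in N-mDCs, 8.71, 10.9 and 14.2 in T-DCs, and 8.16, 7.45 and 7.50 in T-mDCs. No group overlapped another, and T-DCs were highest. The log2 fold change of T-DC against N-mDC was 0.74 ± 0.19 (SE), with an adjusted p of 0.0307. Against T-mDC it was 0.47, with a 95% interval of 0.05 to 0.89 and an adjusted p of 0.127. The call against N-mDC was kept without T-DC sample 1 or T-mDC sample 1. Leaving out any 1 of the other 7 samples lost it (adjusted p up to 0.0918). It was also lost with the gene-length correction at 0.67 (adjusted p = 0.0601) and with the erythroid covariate at 0.48 (adjusted p = 0.22). With T-DC sample 1 as the only T-DC the log2 fold change was 0.42. Against T-mDC, Ndufs1 passed without T-DC sample 1, at 0.63 (adjusted p = 0.0152). Ndufs1 overlaps the tested gene Eef1b2, and how reads shared by overlapping genes were counted is not given in the sources used here.

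Ndufv1, the subunit that binds NADH and FMN, had the same order in T-DCs. Its FPKM was 22.5, 32.4 and 19.4 in N-mDCs, 27.4, 42.6 and 64.1 in T-DCs, and 22.3, 18.3 and 20.1 in T-mDCs. T-DCs lay above T-mDCs without overlap but not above N-mDC sample 2. The log2 fold change was 1.03 (95% interval 0.32 to 1.74, adjusted p = 0.0597) against T-mDC and 0.78 (0.07 to 1.48, adjusted p = 0.114) against N-mDC. Without T-DC sample 1 both passed, at 1.33 (adjusted p = 0.00582) and 1.08 (adjusted p = 0.0122). With T-DC sample 1 as the only T-DC they were 0.42 and 0.17, and with the erythroid covariate 0.05 and 0.13.

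Among the other core subunits of complex I, Ndufs3, Ndufs7, Ndufs8 and Ndufv2 did not pass the test. Ndufs7, which carries an iron-sulfur cluster close to the site where ubiquinone is reduced, had a log2 fold change of 0.55 for T-DC against N-mDC and 0.71 against T-mDC. It was at 20.5, 37.1 and 18.2 FPKM in N-mDCs, 29.5, 33.4 and 45.8 in T-DCs, and 25.8, 19.5 and 19.3 in T-mDCs. Ndufs3 was at 14.6, 24.8 and 14.6, then 19.0, 23.8 and 33.2, then 15.6, 14.3 and 14.98, again with every T-DC above every T-mDC, and passed against T-mDC without T-DC sample 1 (0.87, adjusted p = 0.0323). Ndufs8, an iron-sulfur subunit, ran from 46.7 to 62.5 FPKM in 8 samples and stood at 101 in N-mDC sample 2. Ndufv2 was lowest in N-mDC sample 3 (21.3 FPKM) and highest in T-DC sample 3 (49.7), with a log2 fold change of 0.48 against N-mDC and 0.07 against T-mDC.

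Among the accessory subunits, the largest fold change was that of Ndufa12, which was at 4.04, 6.81 and 3.62 FPKM in N-mDCs, 7.33, 6.99 and 23.3 in T-DCs, and 4.93, 4.32 and 4.12 in T-mDCs. It did not overlap between T-DCs and the mature groups, though T-DC sample 3 contributed most to its log2 fold changes of 1.05 and 1.11 (adjusted p = 0.11 and 0.112). Without T-DC sample 1 they were 1.30 and 1.36 (adjusted p = 0.0448 and 0.0424). Ndufs6, an accessory subunit of the peripheral arm, was at 14.6, 17.6 and 16.3 FPKM in T-mDCs, below every N-mDC sample (24.5, 42.3 and 20.2) and every T-DC sample (22.3, 25.3 and 44.2). Its log2 fold change of -0.74 for T-mDC against N-mDC was the lowest of complex I, with an adjusted p of 0.297. For T-DC against T-mDC it was 0.82 (adjusted p = 0.129), and 1.01 without T-DC sample 1 (adjusted p = 0.0483). Ndufa3 was lowest for T-DC against N-mDC (-0.36) and Ndufs4 for T-DC against T-mDC (-0.17), neither past the test.

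The assembly factors build complex I and leave it when it is complete. Ndufaf7 (mm10 chromosome 17, 78937136 to 78948052) encodes a methyltransferase needed for this assembly. Its level was 6.68, 7.15 and 5.71 FPKM in N-mDCs, 7.51, 6.34 and 8.33 in T-DCs, and 4.88, 4.31 and 4.32 in T-mDCs. All T-mDC samples were below all samples of both other groups. It rose in T-DC against T-mDC by 0.60 ± 0.16 (log2, SE) with an adjusted p of 0.0403, while T-DC against N-mDC was 0.16 (95% interval -0.21 to 0.52). The call was kept on leaving out either N-mDC sample 2 or T-DC sample 1 and lost on leaving out any 1 of the other 7 samples (adjusted p up to 0.169), and it was lost on the TPM scale at 0.36 (adjusted p = 0.279).

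Ndufaf1, which acts early in assembly, was at 6.60, 7.12 and 4.33 FPKM in N-mDCs, 6.92, 11.6 and 14.5 in T-DCs, and 7.83, 9.17 and 6.70 in T-mDCs. Its log2 fold change of 0.75 against N-mDC had an adjusted p of 0.0967. Without T-DC sample 1, which lay within the N-mDC range, the log2 fold change was 1.02 (adjusted p = 0.00882). Ndufaf8 went the other way, at 19.2, 31.0 and 15.2 FPKM in N-mDCs, 14.6, 13.2 and 13.9 in T-DCs, and 14.3, 13.8 and 12.6 in T-mDCs. Both leukemic groups were below N-mDCs without overlap, by -0.56 and -0.59 (adjusted p = 0.139 and 0.266). The median of the 8 factors was 0.08, 0.07 and -0.02 in T-DC against N-mDC, T-DC against T-mDC and T-mDC against N-mDC.

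Complex II, succinate dehydrogenase, is shared with the tricarboxylic acid cycle and has no mitochondrially encoded subunit. All 4 subunits had positive log2 fold changes in both T-DC comparisons, with medians of 0.37 and 0.25, and 0 passed the test. Sdhd, a membrane anchor, was at 57.3, 75.1 and 46.7 FPKM in N-mDCs, 76.6, 79.1 and 111 in T-DCs, and 76.9, 68.3 and 64.0 in T-mDCs. Every T-DC was above every N-mDC, with a log2 fold change of 0.57 (95% interval 0.05 to 1.10, adjusted p = 0.115). Sdhc, the other anchor, was at 16.6, 22.9 and 16.6, then 24.1, 23.9 and 27.8, then 21.4, 16.9 and 16.5, with every T-DC above both mature groups. The flavoprotein Sdha ranged from 46.4 to 71.0 FPKM and the iron-sulfur protein Sdhb from 27.2 to 44.3 over the 9 samples, and for both the groups overlapped.

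Complex III had the largest median fold changes of the complexes in T-DC against T-mDC (0.39) and in T-DC against N-mDC (0.38), though 0 of 8 subunits passed the test. The medians of complexes I, II, IV and V were 0.37, 0.25, 0.35 and 0.35 against T-mDC. Against N-mDC they were 0.16, 0.37, 0.15 and 0.19. Uqcrc1, a core protein, was at 30.1, 45.6 and 28.6 FPKM in N-mDCs, 47.8, 55.7 and 77.7 in T-DCs, and 42.7, 34.8 and 36.4 in T-mDCs. All T-DC samples were above all mature samples. Its log2 fold change of 0.78 against N-mDC had a 95% interval of 0.22 to 1.34 and an adjusted p of 0.0618. It passed without T-DC sample 1 (0.0189) and without N-mDC sample 2 (0.0365). The log2 fold change was 0.35 with the erythroid covariate (adjusted p = 0.459) and 0.48 with T-DC sample 1 as the only T-DC. Uqcr11, a small subunit, was at 35.8, 85.0 and 33.8, then 50.5, 58.1 and 104, then 35.2, 29.2 and 34.8 FPKM, the largest fold change of the complex against T-mDC (1.01, adjusted p = 0.12). Uqcrfs1, the Rieske iron-sulfur protein, was at 78.0, 84.0 and 67.3 in N-mDCs, 82.7, 98.7 and 119 in T-DCs, and 96.0, 102 and 99.7 in T-mDCs. T-mDCs were above N-mDCs without overlap, by 0.38 (95% interval -0.05 to 0.80), and T-DCs spanned the T-mDC values. T-DC against N-mDC was 0.38 (adjusted p = 0.182), and 0.50 without T-DC sample 1 (adjusted p = 0.0468).

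**Figure D4:**
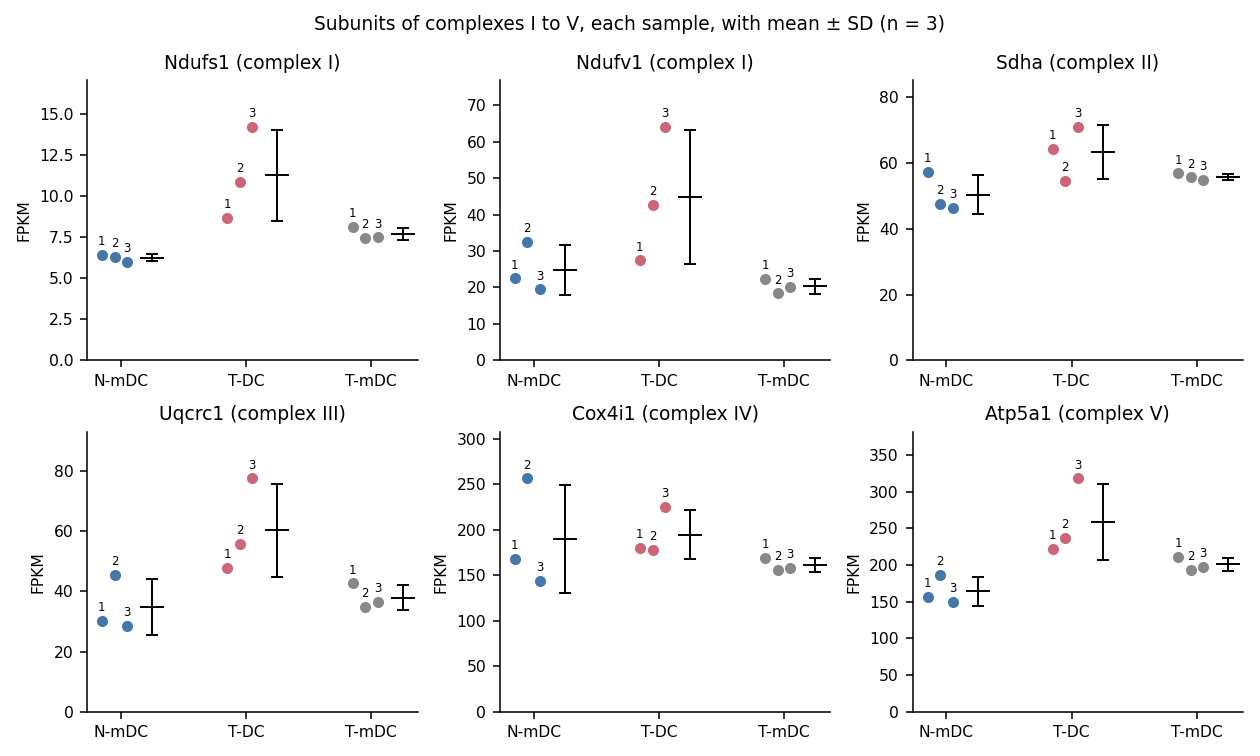
FPKM (vertical axis, from 0) of 6 subunits in each sample of the 3 groups (horizontal axis, points numbered by sample), with the mean and SD (n = 3) to the right. The T-DC samples lie above the other groups for Ndufs1, Uqcrc1 and Atp5a1, and overlap the N-mDC samples for Sdha and Cox4i1.

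Complex IV, cytochrome c oxidase, contains several nuclear subunits with tissue-specific isoforms. Cox4i1, a regulatory subunit made in most tissues, was at 168, 257 and 144 FPKM in N-mDCs, 179.7, 178 and 225 in T-DCs, and 169, 156 and 158 in T-mDCs. The groups overlapped except that T-DCs were above T-mDCs. Cox8a (222 to 395 FPKM) and Cox6a1 (196 to 457) were the most abundant complex IV subunits per length, both with their highest value in T-DC sample 3. The heart and muscle isoform Cox7a1 was at 0.309 to 1.15 FPKM, where Cox7a2 was at 39.7 to 89.4. Ndufa4, once counted with complex I, was at 39.9 to 79.2 FPKM and Cox7b at 41.4 to 72.1, and for both T-DCs overlapped N-mDCs.

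Cox6b2, an isoform of subunit 6B known mainly from testis and sperm, had the widest range of any member. It was at 3.002, 4.71 and 2.24 FPKM in N-mDCs, 1.91, 153 and 94.6 in T-DCs, and 2.96, 3.46 and 3.68 in T-mDCs. T-DC sample 1 was the lowest of all 9 samples and T-DC samples 2 and 3 were the highest, with 38, 2622 and 1592 reads in the 3. The general isoform Cox6b1 was at 119, 178 and 93.6, then 116, 147 and 179, then 104, 116 and 111 FPKM. Cox6b2 made up 50.9% and 34.6% of the summed FPKM of both genes in T-DC samples 2 and 3, and 1.62% to 3.21% in the other 7 samples.

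The log2 fold change of Cox6b2 was 3.06 (95% interval 0.23 to 5.89, adjusted p = 0.118) against N-mDC and 3.01 (0.17 to 5.84, adjusted p = 0.145) against T-mDC. Without T-DC sample 1 it was 4.85 (adjusted p = 2.74e-05) and 4.80 (adjusted p = 3.59e-05). With T-DC sample 1 as the only T-DC it was -0.53 and -0.58, and with the erythroid covariate 0.13 and -1.41. T-DC samples 2 and 3 were also the samples with the highest erythroid, neutrophil and cell cycle sums, whose part in this difference was not tested. Of the genes beside Cox6b2 on chromosome 7, Kmt5c, which ends 4277 bases away, was at 50.7 and 55.3 FPKM in T-DC samples 2 and 3 and 17.2 to 25.1 in the others. Fam71e2, which ends 131 bases from it on the other side, was at 0 except for 0.0235 and 0.0240 FPKM in T-DC samples 2 and 3.

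**Figure D5:**
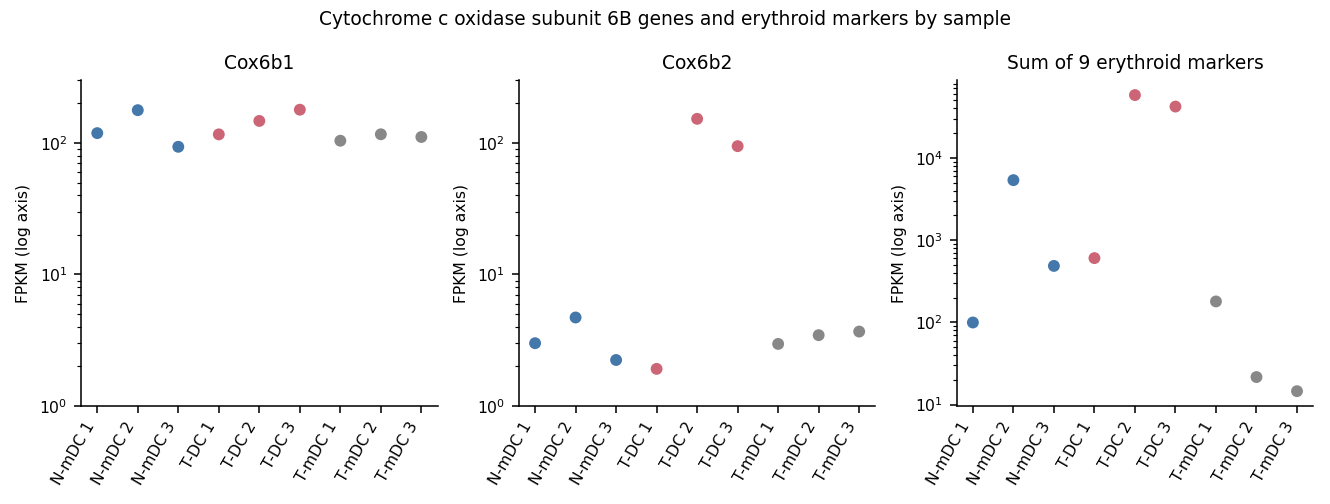
FPKM on log axes (vertical) of Cox6b1, Cox6b2 and the sum of 9 erythroid markers in each of the 9 samples (horizontal, blue N-mDC, red T-DC, grey T-mDC). Cox6b2 stands at 153 and 94.6 in T-DC samples 2 and 3, where the erythroid sum is 58044 and 42074, while Cox6b1 stays between 93.6 and 179.

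Cox4i2, the isoform of subunit 4 that is best known from lung and is induced by low oxygen, was low throughout. It was at 1.54, 3.39 and 1.61 FPKM in N-mDCs (19, 43 and 23 reads), 1.35, 0.246 and 0.0836 in T-DCs (19, 3 and 1 reads), and 0.672, 0.263 and 0.276 in T-mDCs (10, 4 and 4 reads). Both leukemic groups were below N-mDCs without overlap. The log2 fold change was -1.07 for T-DC (95% interval -1.83 to -0.31, adjusted p = 0.0604) and -1.14 for T-mDC against N-mDC (-1.91 to -0.38, adjusted p = 0.13). Without T-DC sample 1 both passed, at -1.40 (adjusted p = 0.00554) and -1.14 (adjusted p = 0.0342), and with T-DC sample 1 as the only T-DC the T-DC value was -0.39. Cox7a2l, the supercomplex factor, was lower in T-DC samples 2 and 3 than in the other 7, at 267, 304 and 193 FPKM in N-mDCs, 254, 153 and 149.9 in T-DCs, and 242, 226 and 220.0 in T-mDCs. Its log2 fold change against N-mDC was -0.47 (95% interval -1.07 to 0.12), with -0.72 without T-DC sample 1 (adjusted p = 0.0299) and 0.02 with T-DC sample 1 as the only T-DC.

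Complex V, the ATP synthase, had a median log2 fold change of 0.19 for T-DC against N-mDC and 0.35 against T-mDC over 16 tested subunits, of which 0 passed the test. Atp5a1, the alpha subunit of the catalytic head, was at 157, 187 and 149 FPKM in N-mDCs, 222, 237 and 318 in T-DCs, and 211, 194 and 198 in T-mDCs. No group overlapped another, with N-mDCs lowest and T-DCs highest. The log2 fold change of T-DC against N-mDC was 0.64 (95% interval 0.20 to 1.09, adjusted p = 0.0558), which passed without T-DC sample 1 (0.0175), with the gene-length correction (0.041) and without a variance trend (0.0482). It was 0.40 with the erythroid covariate (adjusted p = 0.355) and 0.44 with T-DC sample 1 as the only T-DC. Atp5b, the beta subunit that carries the catalytic sites, was at 148, 169 and 124, then 147, 223 and 348, then 169, 177 and 174 FPKM, and T-DCs overlapped both other groups, with 0.62 against N-mDC (adjusted p = 0.17) and 0.92 without T-DC sample 1 (adjusted p = 0.0147). Atp5o, part of the stalk that holds the head, was at 19.9, 35.1 and 48.3 FPKM in T-DCs and at 13.6 to 29.2 in the mature samples, with a log2 fold change of 0.74 against N-mDC (adjusted p = 0.167) and 0.59 against T-mDC (adjusted p = 0.293). Without T-DC sample 1 they were 1.08 (adjusted p = 0.0224) and 0.93 (adjusted p = 0.0428). Atp5e, the epsilon subunit, was the lowest of the complex for T-DC against N-mDC, at -0.33 (adjusted p = 0.45).

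The 3 genes of subunit c, which encode the same mature protein of the membrane ring and differ in their import sequences, differed in their proportions. Atp5g2 made up 61.8%, 54.9% and 54.2% of their summed FPKM in N-mDCs, 47.7%, 41.2% and 36.8% in T-DCs, and 54.9%, 53.4% and 52.8% in T-mDCs. Atp5g3 made up 34.0%, 39.3% and 41.1%, then 48.1%, 51.0% and 52.6%, then 40.5%, 42.0% and 42.8%. All 3 T-DC samples, including sample 1, were below every mature sample in the share of Atp5g2 and above every mature sample in the share of Atp5g3. Atp5g1 made up 4.22%, 7.85% and 10.6% in T-DCs and 4.18% to 5.80% in the mature samples. These shares compare genes within a sample, so a factor common to all genes of a sample does not change them. A length trend that differs between samples can change them, as Atp5g2, Atp5g3 and Atp5g1 are 1675, 2181 and 4912 bases long. No test was run on the shares. In FPKM, Atp5g2 was at 82.1, 105 and 57.2, then 66.2, 56.7 and 72.5, then 83.7, 75.1 and 71.9, and its log2 fold changes in T-DCs were -0.28 and -0.24. Those of Atp5g3 were 0.57 and 0.39, and none of these passed the test (adjusted p from 0.153 to 0.522).

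The mitochondrially encoded subunits of the same complexes had lower medians than the nuclear members in all 3 comparisons. Their summed FPKM was 9338, 6894 and 7766 in N-mDCs, 5609.9, 6906 and 5663 in T-DCs, and 5994, 6949 and 7096 in T-mDCs. Of 13 such genes, 12 had a negative log2 fold change in T-DC against N-mDC, with a median of -0.31 against 0.18 for the nuclear members. Where 10.3% of all tested genes fell, 2 of the 13 did. These were mt-Nd6 (-1.02, adjusted p = 0.0190) and mt-Nd4 (-0.78, adjusted p = 0.0256), both subunits of complex I. Against T-mDC the median was -0.02 and 0 passed. For T-mDC against N-mDC, 12 of 13 were negative, with a median of -0.41, and 0 passed. Strand use in counting is not given in the sources used here, so reads of mt-Nd6 and of the opposite strand cannot be told apart, and mt-Co2, mt-Co3 and mt-Atp6 were at 17.1 to 82.3 FPKM where mt-Co1 was at 2184 to 3495. How reads with several genomic matches were treated is also not given, and its part in these levels was not tested.

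Calls among other genes of the pathway were read beside the shares of all tested genes. These shares were 6.10% higher and 10.3% lower in T-DC against N-mDC, and 5.44% and 8.79% in T-DC against T-mDC. Cytochrome c1 (Cyc1) was at 46.4, 66.7 and 94.2 FPKM in T-DCs, against 32.4 to 47.8 in the mature samples, with log2 fold changes of 0.76 and 0.78 (adjusted p = 0.0813 and 0.0845). Of 40 tested assembly factors of complexes II to V and of complex I outside the Ndufaf genes, 1 rose and 0 fell in T-DC against N-mDC, namely Taco1, a translational activator of mt-Co1 (1.27, adjusted p = 0.00726). In the same comparison, 1 of 13 enzymes of the tricarboxylic acid cycle rose (Ogdh, 0.65, adjusted p = 0.0322). Against T-mDC, 1 rose (Dlst, 0.72, adjusted p = 0.0222), and both belong to the oxoglutarate dehydrogenase complex. In T-DC against N-mDC the 13 enzymes had a median log2 fold change of 0.48, and limma gave 9 of them an unadjusted p under 0.05, where 35.1% of all tested genes had one. Every T-DC was above every N-mDC sample for 8 enzymes (61.5%, against 16.0% of all tested genes) and below for 1. T-mDCs shared much of this, with every T-mDC above every N-mDC sample for 7 enzymes (53.8%, against 19.3%) and below for 2. Every T-DC was above every T-mDC sample for 5 (38.5%, against 16.8%) and below for 1. Of 18 import and carrier genes, 1 fell in T-DC against T-mDC (Slc25a4, an ADP/ATP carrier, -0.84, adjusted p = 0.0389). Of 12 tested regulators of mitochondrial biogenesis, such as Nrf1, Gabpa and Tfam, limma called 0 in any comparison. In T-DC against N-mDC limma gave 4 of the 12 an unadjusted p under 0.05, near the 35.1% of all tested genes.

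Mitochondrial ribosomal proteins had their highest medians in the same samples as the members. Their median over 77 tested genes was -0.21, 0.19 and -0.39 in N-mDCs, -0.02, 0.16 and 0.57 in T-DCs, and -0.08, -0.10 and -0.11 in T-mDCs. Of these genes, 4 rose and 0 fell in T-DC against N-mDC, near the 6.10% of all tested genes that rose, and 0 rose and 1 fell in T-DC against T-mDC. Cytosolic ribosomal genes are another set of short and abundant transcripts. The list held 92 tested genes named Rpl or Rps with a number, of which 8 are Rps6k kinases. In T-DC against N-mDC 75 of 92 had a negative log2 fold change, with a median of -0.24. Of the 92, 1 rose and 4 fell, where 6.10% and 10.3% of all tested genes did.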

How the data were processed

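Total RNA of 9 sorted samples was sequenced, and the authors deposited 1 table of FPKM values per gene against mm10. The aligner, annotation version and handling of overlapping or multiply mapped reads are not given in the sources used here. Multiplied by gene length, the deposited FPKM values gave whole reads to within 5.7e-05 of a read.

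Groups were taken from the labels. Genes that reached 1 FPKM in 3 or more samples were tested as log2(FPKM + 1), so that fold changes of low genes are understated, with limma 3.58.1 in R 4.3.3 (9 samples in 1 linear model, moderated variance with a trend, Benjamini-Hochberg adjustment over 12746 genes, threshold 0.05). The script was tested on simulated data. Members and gene lists were chosen with earlier results of these data known. Named were core subunits, the highest and lowest fold change per complex and comparison, isoform pairs and members past the threshold. Other members named for their values (among them Ndufs3, Cox7a2l and Cox6a1) and the subunit c shares were chosen after the values were seen. Alternatives covered scaling, filters, sample weights, limma voom on the recovered reads and left-out samples. Some core subunits and markers are not reported here by name.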

Additional observations from a re-analysis of the deposited data

How the results depend on the processing

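For T-DC against N-mDC, where 1 member rose, 0 rose without a filter on low values, with only the groups compared in the fit, with the replicate number as a block, with the erythroid covariate, or with T-mDC samples 2 and 3 averaged into 1. In the same comparison 2 rose without a variance trend (Ndufs1 and Atp5a1) and 3 with the gene-length correction (Atp5a1, Sdhd and Ndufa11, without Ndufs1). For T-DC against T-mDC, where 1 rose, 0 rose under the same settings that gave 0 against N-mDC and under TPM or quantile scaling, and 2 with the gene-length correction. All genes lost calls too under these settings: of all tested genes, 1.28% rose in T-DC against N-mDC and 0 against T-mDC with the erythroid covariate, and 0.628% rose against T-mDC with T-mDC samples 2 and 3 averaged. The F-test called 1 member with voom on the recovered reads and 1 with the gene-length correction. With array weights, 42 rose and 6 fell, 51 rose and 5 fell, and 6 rose and 4 fell in the 3 comparisons, and the F-test called 61, where it called 10755 of all tested genes, so these calls are not particular to the members. Leaving out 1 sample at a time gave 0 to 14 higher and 0 to 2 lower for T-DC against N-mDC, 0 to 14 higher for T-DC against T-mDC, 0 to 1 lower for T-mDC against N-mDC, and 0 to 13 by the F-test. The highest values came without T-DC sample 1, where 2557 of all tested genes rose and 2411 fell against N-mDC. Of the named single members, 0 turned direction in a setting that called them, and complex medians were not called. The median of all members did turn. For T-DC against N-mDC it went from 0.18 to -0.17 with the erythroid covariate and to -0.09 with T-DC sample 1 alone. For T-DC against T-mDC it went from 0.34 to -0.21 with the erythroid covariate. The gene-length correction was chosen after the data were seen. Same-numbered samples had correlations of their deviations from the group means of -0.475 to 0.269, and differently numbered samples of -0.361 to 0.427. With 3 samples a group, these values cannot show whether samples were paired. With the replicate block 0 members were called, and 435 of all tested genes rose and 943 fell in T-DC against N-mDC. At 3 samples a group, the 95% interval of a member reached a median of 0.57 (log2) to either side.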
